A study of Mus musculus with 3 samples.

Results

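The clade A serpins Serpina16, Serpina1f and Serpina9 were followed in the mouse epididymis, the long duct where sperm from the testis mature, after castration and after castration with testosterone. These 3 genes of 23519 measured were chosen by name, with earlier results of these data known. Serpina16 (ENSMUSG00000071179) and Serpina9 (ENSMUSG00000058260) carried their symbols in the deposited files, whereas Serpina1f (ENSMUSG00000021081) stood there without a symbol and was found through its Ensembl identifier. Serpina16 and Serpina1f were among the 50 most abundant genes of the Sham library, but Serpina9 did not reach 1 TPM (a transcript level scaled to gene length and to the library total) in any library, so that calling all 3 genes epididymal is not borne out by these data for Serpina9.

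Serpins are proteins of a common fold that mostly inhibit serine proteases. The protease cuts an exposed loop of the serpin, the serpin changes shape and the enzyme is trapped, so each inhibitor molecule is used up. Clade A holds the secreted relatives of alpha-1 antitrypsin, and some of its members carry hormones instead of inhibiting enzymes. The epididymal epithelium secretes many protease inhibitors into the fluid around the sperm, and the secretory output of its principal cells is known to depend on androgen. Serpina1f is listed in RefSeq with the alias epserin, and Serpina9 with the alias Centerin, a name that in humans stands for a serpin of germinal centre B cells.

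The libraries came from adult male ICR mice, an outbred strain, of which 13 were allotted to 3 groups. In the Cas+T group, 5 mice had both testes removed with the epididymides left in place, and from 14 days after surgery they were injected under the skin with testosterone propionate, an ester of testosterone, at 5 mg/kg in corn oil, daily for 10 days. In the Cas+CO group, 5 mice were castrated in the same way and given corn oil. In the Sham group, 3 mice had surgery that spared the testes, and no injection is recorded for them. Each group is represented by 1 library of epididymis RNA, and how many mice went into each is not stated, so there is no replicate error, no test and no p-value, and every ratio compares 2 libraries. The depth is unknown because TPM does not keep it.

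Serpina16 and Serpina1f are neighbours near one end of the clade A serpin cluster on chromosome 12. Serpina10 and Serpina6 lie further toward that end and had no row. In GENCODE M21 (GRCm38), Serpina16 occupies chromosome 12, 103668808 to 103676139, and Serpina1f 103688044 to 103695529, both on the minus strand and 11904 bases apart. Serpina9 lies on the same strand at 103994743 to 104013755, 299213 bases beyond Serpina1f. The transcripts with the longest coding sequence hold 1254 coding bases in 5 exons for Serpina16, 1233 in 6 exons for Serpina1f and 1254 in 5 exons for Serpina9. Of 28 clade A genes and pseudogenes annotated on chromosome 12, 16 had a row in the files, and the other 12 were not analysed here.

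The promoter windows of the pair are shown because both genes differed in the same direction between libraries. Each runs from 250 bases before to 50 bases after the RefSeq start (GRCm38.p6), on the minus strand, at chr12:103676713-103677012 for Serpina16 and chr12:103695480-103695779 for Serpina1f. Capitals mark the androgen receptor half-site TGTTCT, which was searched together with its reverse complement AGAACA so that both strands were covered; the 2 motifs do not overlap each other here.
Serpina16: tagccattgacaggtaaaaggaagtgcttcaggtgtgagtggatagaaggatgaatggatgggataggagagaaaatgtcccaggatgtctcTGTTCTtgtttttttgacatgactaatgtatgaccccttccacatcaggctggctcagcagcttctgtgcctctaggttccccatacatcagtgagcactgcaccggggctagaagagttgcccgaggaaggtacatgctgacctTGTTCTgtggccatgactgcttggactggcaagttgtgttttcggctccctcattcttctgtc
Serpina1f: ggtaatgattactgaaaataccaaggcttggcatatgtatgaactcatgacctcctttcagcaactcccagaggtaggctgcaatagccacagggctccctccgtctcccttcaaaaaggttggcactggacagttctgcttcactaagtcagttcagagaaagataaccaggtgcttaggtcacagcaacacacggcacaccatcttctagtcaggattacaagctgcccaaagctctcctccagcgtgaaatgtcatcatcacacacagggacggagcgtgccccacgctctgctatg

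Serpina16 held 2 half-sites, starting at positions -158 and -13 relative to the RefSeq start, and Serpina1f held none. Of 32851 promoter windows in the RefSeq table, 19.0% held at least 1 half-site and 2.54% held 2 or more. The full palindrome, AGAACA and TGTTCT separated by any 3 bases, was in neither promoter and in 3 of all windows. These matches describe letters in a window and are not evidence of binding. For Serpina16 the RefSeq start lies 623 bases upstream of the GENCODE start, while for Serpina1f the starts are the same base.

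Serpina16 was abundant in Cas+T and Sham and near 0 in Cas+CO. Its level was 1646 TPM in Cas+T, 0.30 TPM in Cas+CO and 2389 TPM in Sham. Among 23519 genes it stood in place 61 in Cas+T, 17930 in Cas+CO and 47 in Sham. The Cas+CO level was 0.0126% of the Sham level, a share that rests on a value under 1 TPM and is therefore imprecise. On the log2(TPM + 1) scale, which understates changes of low levels, the difference was -10.84 for Cas+CO over Sham and 10.31 for Cas+T over Cas+CO.

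Serpina1f was higher than Serpina16 in every library and stayed well above 1 TPM in Cas+CO. It was at 3360 TPM in Cas+T, 75.3 TPM in Cas+CO and 4426 TPM in Sham, in places 30, 1891 and 27. Cas+CO thus held 1.70% of the Sham level, 58.8-fold less as TPM. The log2 difference was -5.86 for Cas+CO over Sham and 5.46 for Cas+T over Cas+CO.

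The proportion of the neighbouring genes to each other was similar in Cas+T and Sham and very different in Cas+CO. Serpina1f had 2.04 times the TPM of Serpina16 in Cas+T, 251 times in Cas+CO and 1.85 times in Sham. The Cas+CO figure rests on a Serpina16 level of 0.30 TPM and is therefore imprecise. Together they made up 0.501% of all TPM in Cas+T, 0.00756% in Cas+CO and 0.682% in Sham. Of the TPM of all serpins, the pair held 92.9% in Cas+T, 12.2% in Cas+CO and 94.6% in Sham.

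Serpina9 was listed at 0 in both castrated libraries and at 0.03 TPM in Sham. It passed no minimum and enters no ratio. B cell and germinal centre markers were present where Serpina9 was listed at 0: their 10 genes summed to 8.66 TPM in Cas+T, 340 TPM in Cas+CO and 3.86 TPM in Sham. Most of the Cas+CO sum came from the antibody light chain gene Igkc at 315 TPM, and Ms4a1, which encodes the B cell surface protein CD20, was at 1.97 TPM there.

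**Figure D1:**
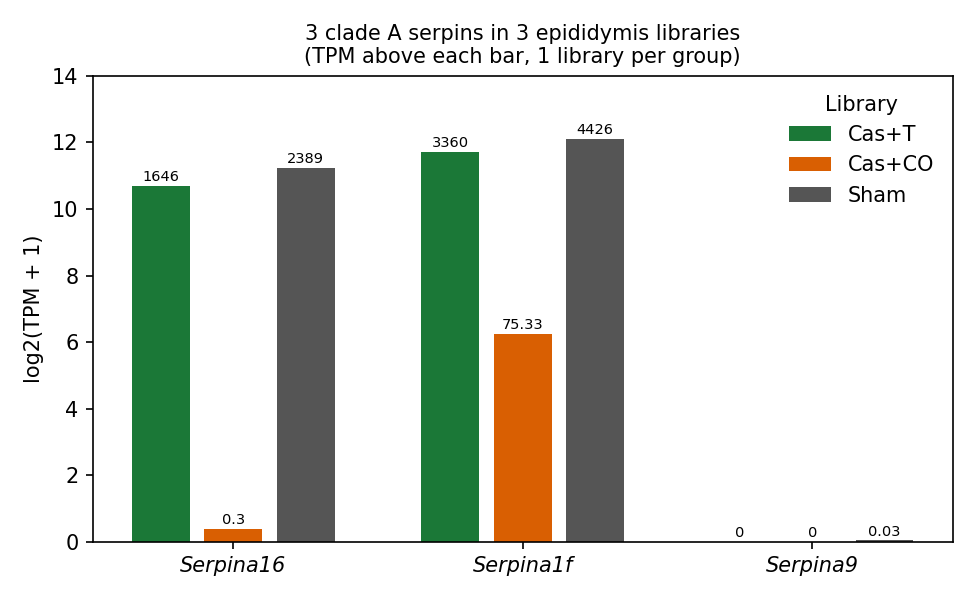
Levels of the 3 clade A serpins in the Cas+T, Cas+CO and Sham libraries as log2(TPM + 1), with the TPM printed above each bar; each bar is 1 library, so there are no error bars. Serpina16 and Serpina1f are high in Cas+T and Sham and low in Cas+CO, where Serpina1f still reaches 75.3 TPM, and Serpina9 is at or near 0 throughout.

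Against the whole library, the pair lay at the far end of the castration differences. At least 1 TPM in either library was reached by 16182 genes in Cas+CO and Sham, of which 6.48% were lower by 2-fold or more in Cas+CO and 37.6% were higher by as much, around a median log2 ratio of 0.76. Serpina16 stood in place 6 from the lowest ratio, and Serpina1f stood in place 69. For Cas+T over Cas+CO, 6.9% of 16165 genes were higher by 2-fold or more and 23.4% were lower by as much, around a median of -0.46. There Serpina16 stood in place 3 from the highest ratio, and Serpina1f stood in place 54. The genes were chosen with earlier results of these data known, so all these places are descriptions. When the libraries were brought to an equal median over expressed genes, the share of higher genes among all those 2-fold apart moved to 52.6% for Cas+CO over Sham and 44.1% for Cas+T over Cas+CO, and the pair kept its direction.

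**Figure D2:**
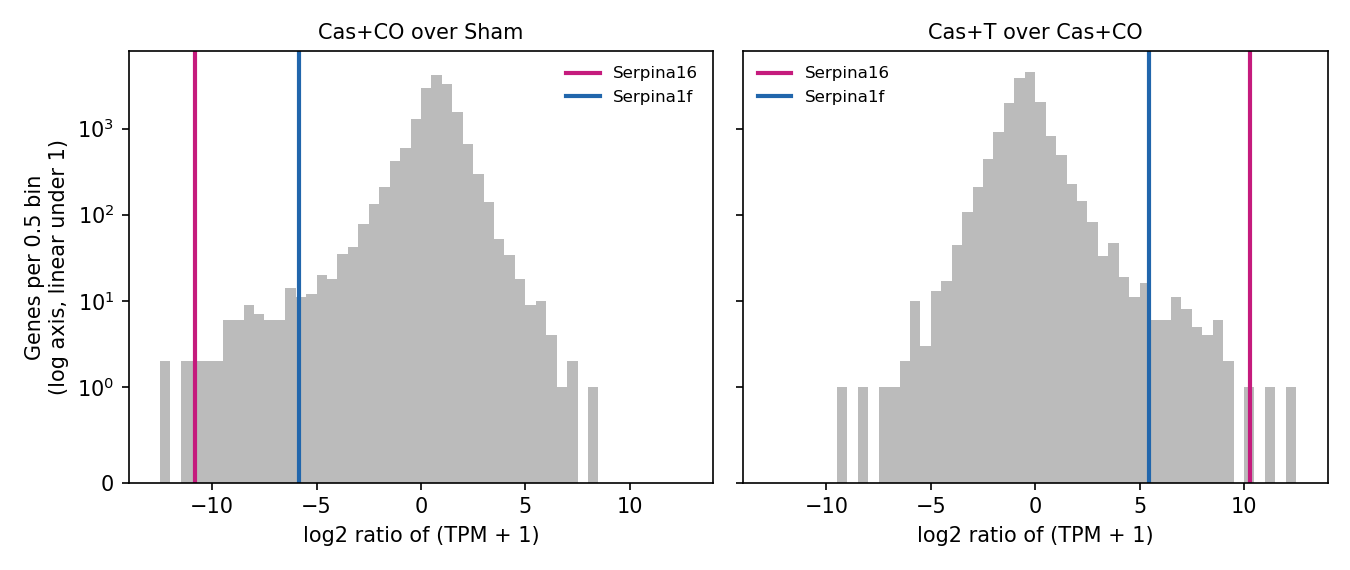
Number of genes per 0.5 bin of the log2 ratio of (TPM + 1), on a log count axis that is linear under 1, for Cas+CO over Sham on the left and Cas+T over Cas+CO on the right. Vertical lines mark Serpina16 at -10.84 and 10.31 and Serpina1f at -5.86 and 5.46; the panels share the Cas+CO library.

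In Cas+T both genes were within 2-fold of Sham. Serpina16 in Cas+T was at 68.9% of its Sham TPM (log2 ratio -0.54) and Serpina1f at 75.9% (log2 ratio -0.40). Over 14631 genes compared between Cas+T and Sham, 2.75% were lower by 2-fold or more and 5.19% were higher by as much, with a median log2 ratio of 0.30. Both genes thus lay below the median gene, Serpina16 in place 859 from the lowest ratio and Serpina1f in place 1183. On the log2 scale, the gap between Cas+T and Cas+CO was 95.05% of the gap between Sham and Cas+CO for Serpina16 and 93.2% of it for Serpina1f; Cas+CO enters both gaps, so these shares are descriptions.

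Loss of this size was not general among abundant transcripts, but the pair was not alone in it. In Sham, 111 genes reached 1000 TPM, and their median level in Cas+CO was 74.1% of Sham. The 111 include ribosomal protein and mitochondrially encoded genes, such as Rpl10 and mt-Co1, with similar levels in both libraries. The median therefore does not describe secretory genes alone. Only 9 of the 111 were under 1 TPM in Cas+CO, of which Serpina16 was 1, and 29 were at 10% of Sham or less. Beside Serpina16, those under 1 TPM were Defb18, Defb48, Lcn8 and Lcn9, all listed at 0, and 9230113P08Rik, Teddm1a, Rnase10 and Lypd8. By the share kept in Cas+CO, Serpina16 was in place 7 from the lowest and Serpina1f in place 19. The 29 genes stood at a median of 62.3% of Sham in Cas+T, with a range of 0% to 144%, and the pair lay above that median.

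**Figure D3:**
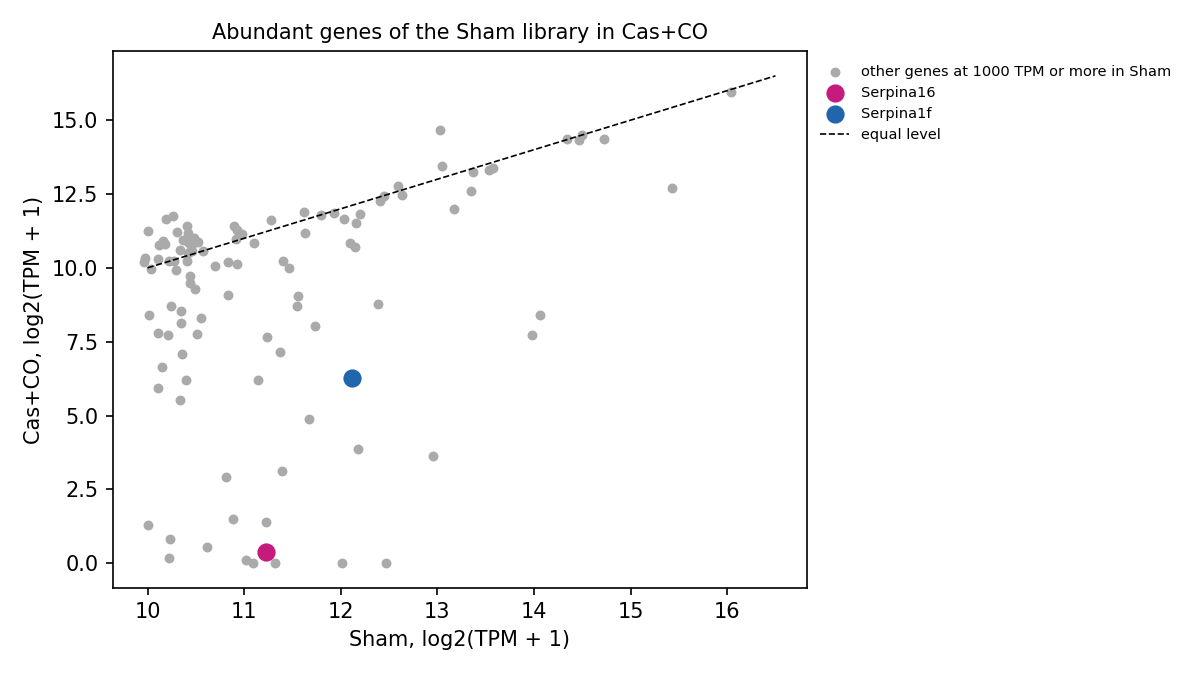
The 111 genes at 1000 TPM or more in Sham, with their Sham level on the horizontal axis and their Cas+CO level on the vertical axis, both as log2(TPM + 1); each point is a gene and the dashed line marks equal levels. Serpina16 lies among 9 genes under 1 TPM in Cas+CO, and Serpina1f lies above it at 75.3 TPM.

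Cell type markers moved between the same libraries. General epithelial markers, 7 genes such as Krt8 and Epcam, summed to 2167 TPM in Cas+T, 2104 TPM in Cas+CO and 1647 TPM in Sham, and none was 2-fold apart in any comparison. Relative to the median of these markers, Serpina1f was at 9.25 in Cas+T, 0.248 in Cas+CO and 15.3 in Sham, and Serpina16 at 4.53 in Cas+T, 0.000986 in Cas+CO and 8.28 in Sham. Secretory genes of principal cells were lower in Cas+CO than in Sham for 7 of 7, with sums of 68432 TPM in Cas+T, 7235 TPM in Cas+CO and 91241 TPM in Sham. In Cas+T over Cas+CO 6 of these 7 were higher, beside 6.9% of all genes. Cst8, an epididymal cystatin, was lower, at 1.20 TPM in Cas+T, 9.29 TPM in Cas+CO and 238 TPM in Sham. The sums rest largely on Crisp1 and Gpx5. In RNA from whole tissue, fewer cells of a type and less RNA per cell cannot be told apart.

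Sperm and germ cell markers summed to 0.12 TPM in Cas+T, 0 in Cas+CO and 72.0 TPM in Sham. In Cas+T, 6 of these 7 genes, Prm1 and Prm2 included, were at 0, and the serpin pair was at 5006 TPM in that library. Hepatocyte markers, which bear on clade A serpins because the liver makes many of them, summed to 0.62 TPM in Cas+T, 1.02 TPM in Cas+CO and 1.20 TPM in Sham. The summed markers of 3 other cell types were highest in Cas+CO: adipocyte genes summed to 76.3 TPM in Cas+T, 1392 TPM in Cas+CO and 28.0 TPM in Sham, fibroblast genes to 107, 1240 and 101 TPM in the same order of libraries, and macrophage genes to 99.7, 553 and 49.9 TPM. Dcn made up 881 TPM of the fibroblast sum in Cas+CO, and Pdgfra of that list was at 3.07 TPM in Cas+T, 11.04 TPM in Cas+CO and 18.9 TPM in Sham. Of 4 Sertoli and Leydig cell markers, 2 had a row, and these differed in opposite directions. Sox9 was at 6.86 TPM in Cas+T, 21.13 TPM in Cas+CO and 5.26 TPM in Sham. Cyp17a1 was at 41.79 TPM in Cas+T, 0.76 TPM in Cas+CO and 49.55 TPM in Sham. The part of these cell types in the lower TPM of the serpins in Cas+CO was not tested.

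The rest of clade A stood at far lower levels than the pair and differed in mixed directions. The files held 17 clade A serpins, of which 9 reached 1 TPM in some library. Between Cas+CO and Sham, 3 of the 9 were at least 2-fold lower, namely the pair and Serpina7, 2 were higher and 4 lay within 2-fold. Over all genes 6.48% were lower and 37.6% higher. The median log2 ratio was 0.76 against 0.76 over all genes. After scaling to the median gene, 8 were compared, with the same counts lower and higher. Over all genes after that scaling, 1898 were lower and 2104 higher of 15326. The scaled median was -0.01 against 0.03 over all genes. Between Cas+T and Cas+CO, 8 were compared: the pair was higher, 2 were lower and 4 lay within 2-fold. Over all genes 6.9% were higher and 23.4% lower. The median was -0.29 against -0.46 over all genes (0.08 against -0.03 after that scaling). On the log2(TPM + 1) scale all 6 that could be compared between Cas+T and Sham lay within 2-fold. Over all genes 5.19% were higher and 2.75% lower. With a pseudocount of 0.1 in place of 1, 1 of the 6 was higher and 1 lower. As TPM, Serpina3i in Cas+T was at 2.91 times its Sham level and Serpina7 at 0.27 times, both under 2 TPM. Clade A serpins other than the 3 chosen genes summed to 15.9 TPM in Cas+T, 27.3 TPM in Cas+CO and 12.1 TPM in Sham.

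Serpina7, the thyroxine-binding globulin and a carrier rather than an inhibitor, lies on chromosome X and was at 0.37 TPM in Cas+T, 0 (as listed) in Cas+CO and 1.37 TPM in Sham. It was the only other clade A serpin at least 2-fold lower in Cas+CO, at a far lower level than the pair. Serpina3c was at 0.45 TPM in Cas+T, 3.34 TPM in Cas+CO and 0.23 TPM in Sham. Serpina3g, an intracellular inhibitor also called Spi2A, was at 0.36 TPM in Cas+T, 2.80 TPM in Cas+CO and 0.15 TPM in Sham. These genes of the Serpina3 group had their highest level in Cas+CO.

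Serpina3n, an acute phase inhibitor, had the highest level of the other clade A genes, with 9.76 TPM in Cas+T, 13.98 TPM in Cas+CO and 7.35 TPM in Sham. Serpina3h, annotated as a transcribed pseudogene, was at 1.63, 2.01 and 1.38 TPM in the same libraries, and Serpina3i at 1.66, 1.76 and 0.57 TPM. Serpina1b, an alpha-1 antitrypsin gene and the nearest serpin beyond Serpina1f, was at 0.55 TPM in Cas+T, 1.02 TPM in Cas+CO and 0.19 TPM in Sham. None of these 4 was 2-fold apart on the log2(TPM + 1) scale in any comparison for which it reached 1 TPM.

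Reads of near-identical serpins can be split between genes, and this differed between the pair and its relatives. Of the 31-base words in GENCODE transcripts of Serpina16, 0 of 1552 occurred in a transcript of another gene, and for Serpina1f 29 of 3184 (0.911%) did, in Gm44420, Gm48859 and Amn1. For the alpha-1 antitrypsin genes the shares were 82.2% in Serpina1c, 65.2% in Serpina1a and 44.7% in Serpina1b, so the low values of these genes are uncertain. Within the Serpina3 group they ran from 7.20% in Serpina3a to 39.8% in Serpina3h.

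**Figure D4:**
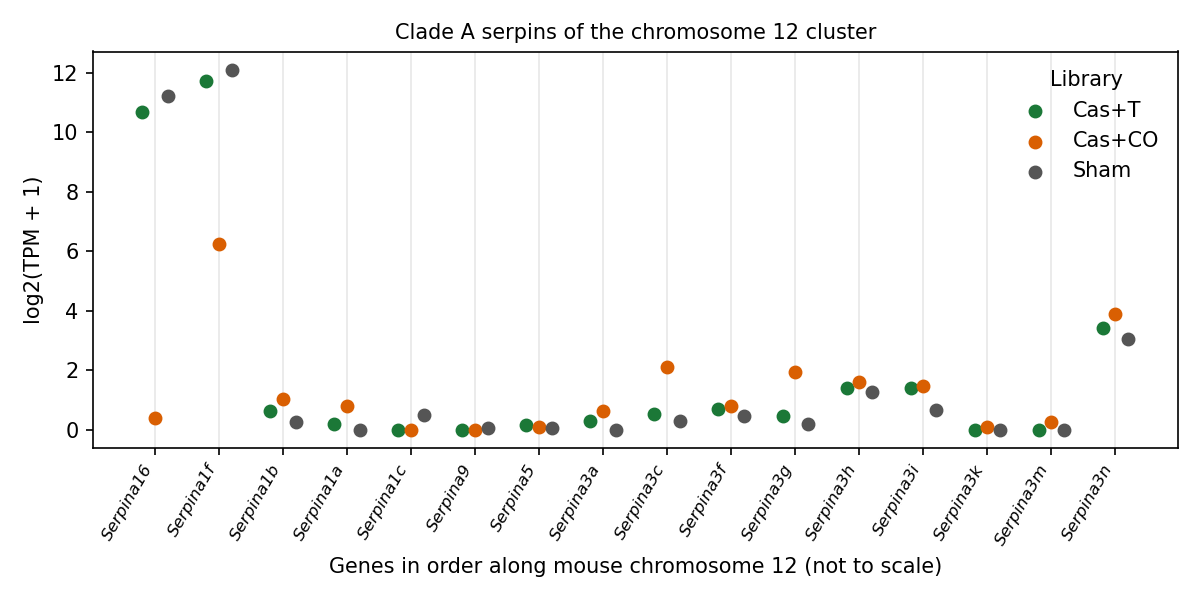
Levels of 16 clade A serpins of chromosome 12 as log2(TPM + 1), in their order along the chromosome and not to scale, with 1 point for each of the Cas+T, Cas+CO and Sham libraries. The pair at the left stands above every other gene in Cas+T and Sham; of the others Serpina3n reaches 13.98 TPM in Cas+CO.

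Serpins of other clades differed in both directions, and more were higher than lower in Cas+CO against Sham. Of 24 with a row, 15 were compared between Cas+CO and Sham, where 9 were at least 2-fold higher and 2 lower (median log2 ratio 1.39). Over all genes 37.6% were higher and 6.48% lower, with a median of 0.76. After scaling to the median gene, 6 of the 15 were higher and 3 lower, beside 2104 higher and 1898 lower of 15326 genes. The scaled median was 0.61 against 0.03 over all genes. Between Cas+T and Cas+CO, 14 were compared, with 2 higher and 7 lower (median -0.94). Over all genes 6.9% were higher and 23.4% lower, with a median of -0.46. After that scaling, 3 of the 14 were higher and 5 lower, beside 1519 higher and 1928 lower of 15121 genes. The scaled median was -0.53 against -0.03 over all genes. In Cas+T over Sham 1 of 13, Serpinb1a, was higher and none lower, beside 5.19% higher and 2.75% lower over all genes.

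Of the serpins outside clade A, 2 were lower in Cas+CO than in Sham by 2-fold or more as deposited (3 after scaling to the median gene). Serpinf2, alpha-2-antiplasmin, which blocks the clot-dissolving enzyme plasmin, was at 41.9 TPM in Cas+T, 0 (as listed) in Cas+CO and 52.3 TPM in Sham. Serpine2, protease nexin-1, an inhibitor of thrombin and urokinase, was at 137 TPM in Cas+T, 9.03 TPM in Cas+CO and 192 TPM in Sham. Both had their lowest level in Cas+CO, as Serpina16 and Serpina1f did.

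Several serpins with roles in other cells were highest in Cas+CO. Serping1, the inhibitor of complement C1, was at 29.45 TPM in Cas+T, 142 TPM in Cas+CO and 23.4 TPM in Sham. Serpinh1, a chaperone of collagen, was at 7.63 TPM in Cas+T, 48.8 TPM in Cas+CO and 8.97 TPM in Sham. Serpinb9, an inhibitor of granzyme B, was at 48.8 TPM in Cas+T, 106 TPM in Cas+CO and 25.3 TPM in Sham. Serpinb1b was at 0.30 TPM in Cas+T, 10.2 TPM in Cas+CO and 0.31 TPM in Sham, and Serpinf1, which encodes PEDF, at 8.16 TPM in Cas+T, 35.4 TPM in Cas+CO and 12.2 TPM in Sham. The fibroblast and macrophage marker sums given above were also highest in Cas+CO, and their part in these values was not tested.

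**Figure D5:**
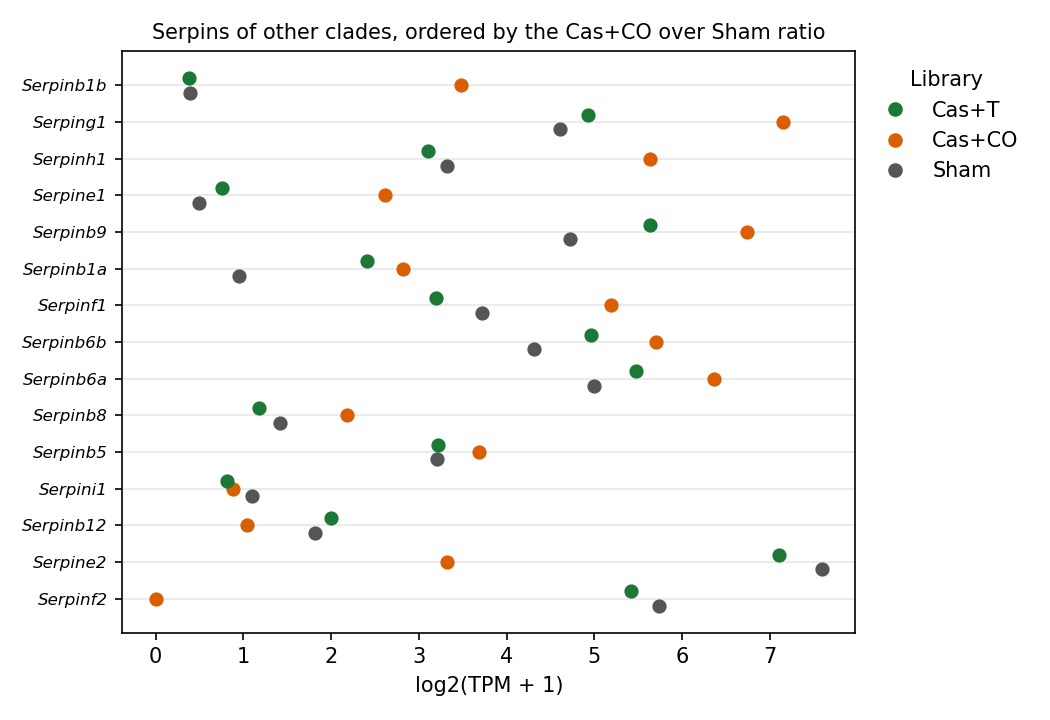
Levels of 15 serpins outside clade A as log2(TPM + 1), 1 row per gene with a point for each of the Cas+T, Cas+CO and Sham libraries, ordered by the Cas+CO over Sham ratio with the highest at the top. Serpinf2 and Serpine2 at the bottom are low in Cas+CO, whereas Serpinb1b and Serping1 at the top are high there.

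Serine proteases are the enzymes that inhibitory serpins act on. Of 24 secreted or membrane-bound proteases listed, 18 had a row and 10 were compared between Cas+CO and Sham. Of these 10, 5 were at least 2-fold higher and 1 lower (median log2 ratio 0.96). Over all genes 37.6% were higher and 6.48% lower, with a median of 0.76. After scaling to the median gene, 3 of the 10 were higher and 1 lower, with a median of 0.20. Over all genes after that scaling, 2104 were higher and 1898 lower of 15326, with a median of 0.03. Prss23 was at 13.0 TPM in Cas+T, 118 TPM in Cas+CO and 11.2 TPM in Sham. Tmprss2, known as an androgen target in the human prostate, was at 11.5 TPM in Cas+T, 58.6 TPM in Cas+CO and 10.7 TPM in Sham. Plau, which encodes urokinase, was at 71.7 TPM in Cas+T, 121 TPM in Cas+CO and 56.1 TPM in Sham, and Hpn, hepsin, at 9.92 TPM in Cas+T, 23.1 TPM in Cas+CO and 12.3 TPM in Sham. Between Cas+T and Cas+CO, 1 of 10 was higher and 5 were lower (median -0.94), beside 6.9% higher and 23.4% lower over all genes. After that scaling, 1 was higher and 4 were lower, beside 1519 higher and 1928 lower of 15121 genes. The lower protease in Cas+CO and higher one in Cas+T was Proc, protein C of the clotting system, at 3.46 TPM in Cas+T, 0.60 TPM in Cas+CO and 3.92 TPM in Sham; it is named after its values were seen.

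The genes most like each serpin in pattern were sought over the 3 libraries among 10158 other genes at 10 TPM or more in some library, by the distance between log2(TPM + 1) values after each gene's mean was subtracted. Nearest to Serpina16 were 9230113P08Rik (distance 0.78), Lypd8 (1.08), Defb30 (1.12), Lcn5 (1.31) and Ly6f (1.31). Of these, 9230113P08Rik was at 2705 TPM in Cas+T, 0.08 TPM in Cas+CO and 2069 TPM in Sham. Nearest to Serpina1f were Fga (0.056), Serpinf2 (0.088), Cyp4a12a (0.18), Gpx5 (0.19) and Defb21 (0.20). Gpx5, the secreted glutathione peroxidase, was at 15470 TPM in Cas+T, 335 TPM in Cas+CO and 17098 TPM in Sham. Fga, the fibrinogen alpha chain, was at 44.0 TPM in Cas+T, 0 in Cas+CO and 60.3 TPM in Sham. Fga and Serpinf2 were both listed at 0 in Cas+CO, whereas Serpina1f was at 75.3 TPM there. Their small distances to Serpina1f thus depend on the pseudocount of 1, which bounds the ratio of a gene at 0. In Cas+CO, Serpina16 was at 0.30 TPM, Lypd8 at 0.77 TPM and Ly6f at 0.67 TPM. The distances from Serpina16, that to Serpina1f included, therefore depend on the pseudocount as well. The pair lay 4.02 apart: Serpina1f was in place 50 among the genes nearest to Serpina16, and Serpina16 in place 696 among those nearest to Serpina1f. With 3 libraries per gene, these distances are a description.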

How the data were processed

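The deposited files hold 1 value per Ensembl gene on a log2 scale, with no unit in header or label. They were read as log2(TPM + 1), since 2 to the value, minus 1, gave multiples of 0.01 (within 0.001) for 100% of values under 1000 and summed to 1000000 per library. Which aligner, counter and build the authors used is not given in the sources used here. Each file had 23538 rows, 937 without a symbol; names came from the GENCODE M21 table (20 identifiers unmatched), and rows sharing a symbol were summed. Coordinates are those of that annotation.

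Log2 ratios used a pseudocount of 1 and genes at 1 TPM or more in at least 1 of the 2 libraries; 2-fold was the limit. Serpins were taken by symbol; the protease and marker lists were written by hand. Named genes were the 3 members, clade A serpins at 1 TPM, up to 4 other serpins and 4 proteases per direction with the largest ratios at 10 TPM or more, and the 5 genes nearest in pattern. Members and lists were chosen with earlier results of these data known. No protein sequences were used. Marker lists are given as sums, with single genes where they depart from the sum. Ratio code was tested on simulated data. Alternatives were 4 scalings, a 4-fold limit, a pseudocount of 0.1, and 10 TPM or nothing as the minimum. Python 3.11.15, NumPy 2.4.6, pandas 2.3.3 and matplotlib 3.10.9 were used.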

Additional observations from a re-analysis of the deposited data

How the results depend on the processing

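No paired analysis was possible because each group has 1 library. Of 148 values recomputed under an alternative, 133 stayed within 1.5 times of the value reported and on its side of the limit, and none changed direction. The 133 include values that could not move. A log2 ratio does not depend on the fold limit. With a pseudocount of 1, genes under 1 TPM in both libraries cannot reach 2-fold, so dropping the minimum leaves the counts unchanged. Serpina16 moved with the pseudocount of 0.1, to -12.54 for Cas+CO over Sham and 12.01 for Cas+T over Cas+CO, since its Cas+CO level is under 1 TPM. Serpina1f in Cas+CO over Sham moved to -6.64 when libraries were scaled to the median of expressed genes, which lowers Cas+CO by 0.80 and Cas+T by 0.35 on the log2 scale. The return in Cas+T ran from 91.9% to 95.7% for Serpina16 and from 87.7% to 93.2% for Serpina1f. The log2 ratio of Cas+T over Sham ran from -0.89 to -0.54 for Serpina16 and from -0.75 to -0.40 for Serpina1f.

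Counts of clade A serpins are small and moved more. With the pseudocount of 0.1, 4 were higher in Cas+CO than in Sham, and 1 was higher and 1 lower in Cas+T than in Sham. With a minimum of 10 TPM or a 4-fold limit, 0 were higher in Cas+CO over Sham and 0 lower in Cas+T over Cas+CO. Using only symbols as the files give them, an alternative chosen after seeing the data that leaves out Serpina1f, 1 was higher in Cas+T over Cas+CO. With the 4-fold limit, 5 serpins of other clades were higher in Cas+CO over Sham and 3 lower in Cas+T over Cas+CO, and 0 were higher in Cas+T over Sham, as with the minimum of 10 TPM. Depth is unknown, so the precision of levels under 1 TPM, such as Serpina16 in Cas+CO, cannot be given.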

Other observations

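The genes that flank the pair on chromosome 12 were looked at after their values were seen. Ppp4r4, a regulatory subunit of a protein phosphatase and the nearest protein-coding gene outside the serpin cluster, was at 4.37 TPM in Cas+T, 2.38 TPM in Cas+CO and 1.52 TPM in Sham. Gm5656, an unprocessed pseudogene that lies between Serpina1f and Serpina1b at 103699528 to 103704619 (GRCm38), was at 4.92 TPM in Cas+T, 0 (as listed) in Cas+CO and 2.84 TPM in Sham. The 29 words of 31 bases that Serpina1f shares with other genes include none from Gm5656.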
